A study of Mus musculus with 18 samples.

Results

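The comparison described here is that of pituitary glands from transported mice with those of untransported controls. It was made on all 6 pituitary arrays of the series, titled Control_pituitary or Stress_pituitary, out of 18 arrays that also cover hypothalamus and ovary. The mice were females of the strain labelled BABL/c, from 10 littermate pairs that were split between both groups at 6 weeks of age. The stress group was driven 1000 km by road at 50 km/h for nearly 10 h, while the controls were kept in the same laboratory without the journey. Every mouse, control or stressed, was superovulated at 9 weeks of age, so both groups carried the hormone treatment. In each group 1 array held the pituitary RNA of the mouse with the most ovulated oocytes (called high), 1 that of the mouse with the fewest (low) and 1 that of the other 8 mice pooled (pool). Only 2 of the 3 arrays in a group were thus single animals, and the classes were themselves set by an outcome of the superovulation. Signals are log2 values from Affymetrix Mouse Gene 2.0 ST arrays, on which a difference of 1 is 2-fold.

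The pituitary links the brain to the ovary, the adrenal and other glands. In its anterior lobe, corticotropes cut the precursor Pomc into ACTH when hypothalamic CRH and vasopressin signal stress, and the glucocorticoids that ACTH calls forth from the adrenal restrain the corticotropes in turn. Gonadotropes secrete LH and FSH under GnRH, lactotropes secrete prolactin under the brake of dopamine, and somatotropes and thyrotropes secrete growth hormone and TSH. Immediate early genes such as Fos, Egr1 and Nr4a1 are switched on within minutes of receptor signalling in these cells.

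All 8 measured endocrine markers were higher on every pituitary array than on any array of another tissue. Gh read 13.42 to 13.66 in pituitary against at most 10.46 elsewhere, and Fshb 11.19 to 12.15 against at most 5.36. The ninth marker, Pou1f1, was not analysed here. Over all genes both pools correlated at 0.984 with each other and at 0.941 to 0.960 with the single mice. Single mice correlated at 0.968 to 0.985 among themselves. The stressed pool stood apart from the other pituitary arrays for some genes. On it 33 genes lay over 2 above all 5 others, against 12 on the stressed high array, 1 each on the control high and control pool arrays and 0 on either low array. Of these 33 genes, 17 were over 1 higher in single-mouse ovary than in single-mouse pituitary, 4 in hypothalamus, 5 in both and 7 in neither. The steroidogenic enzyme Cyp11a1 read 11.34 on the stressed pituitary pool against 3.51 to 5.31 on the other pituitary arrays. The stressed hypothalamus pool was high for ovarian genes too. There Cyp11a1 read 10.52 against a mean of 5.41 in single-mouse hypothalamus, and Star 7.56 against 4.63. The summed signal of 26 ovarian markers was 6974.7 on the stressed pituitary pool and 842.2 to 1184.5 on the other pituitary arrays. The mean log2 level of 24 neural markers was 7.09 on the stressed pool, 6.52 on the control pool and 5.80 to 6.11 on the single mice. Values that rest on the pools are therefore given by class, and their part was tested only by leaving pool arrays out, together or 1 at a time.

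**Figure D1:**
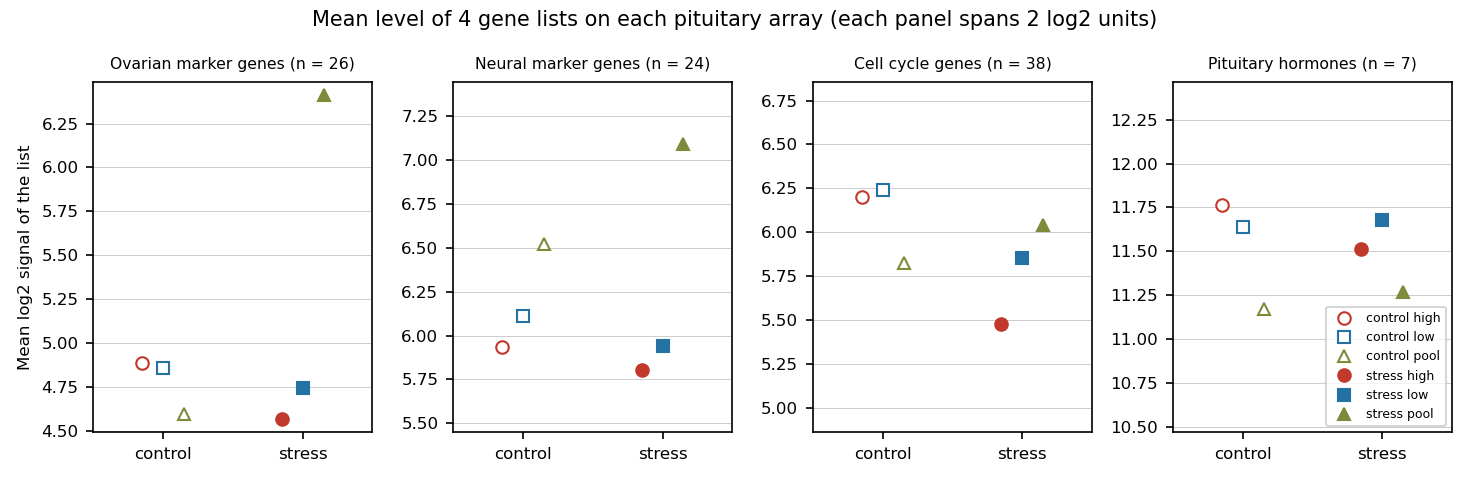
Mean log2 signal (vertical axis) of 4 gene lists on each of the 6 pituitary arrays, by treatment (horizontal axis) and ovulation class (marker shape and colour; open for control, filled for stress). The stressed pool lies above the other arrays for ovarian and neural markers, the stressed single mice lie below the control single mice for cell cycle genes (5.48 and 5.85 against 6.20 and 6.24), and the hormones read lower on both pools (11.17 and 11.27) than on the single mice (11.51 to 11.76).

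No gene passed the test of stress against control. In limma with Benjamini-Hochberg adjustment, 0 of 22180 genes passed an adjusted p of 0.05 (0.0%), the lowest adjusted p was 0.9999, and 294 genes had an unadjusted p under 0.05 (1.33%). Of those, 137 were higher (0.618%) and 157 lower (0.708%) under stress. Over all genes the median difference was -0.04, with class values of -0.08 (high), -0.03 (low) and -0.02 (pool). Of all genes 43.6% were higher and 56.3% lower. The spread in the fit without a block holds the difference between pools and single mice. With the class as a block, 0 genes passed again (lowest adjusted p 0.856) and 1110 had an unadjusted p under 0.05 (5.0%). An exact permutation test of 3 against 3 arrays could not go below a two-sided p of 0.1 for any gene. Without such a call, genes are described by their values, and "higher" or "lower" below names the sign of a difference and not a call.

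Weaker criteria leave many genes in either direction, and they give the background for the counts that follow. The groups did not overlap for 1349 genes (6.08%), with all stressed arrays above the controls for 533 (2.4%) and below them for 816 (3.68%). By class, 43.5% of genes were higher for the high pair, 45.8% for the low pair and 47.2% for the pools. The sign was the same in all 3 classes for 2242 higher genes (10.1%) and 3923 lower ones (17.7%). Differences over 1 numbered 466 for the high pair (2.1%), 185 for the low pair (0.834%) and 334 for the pools (1.51%). Differences under -1 numbered 766 (3.45%), 138 (0.622%) and 127 (0.573%) in the same order. The pool differences were unlike the others in their genes. Of the 334 genes over 1 higher in the stressed pool, 71.3% were over 1 higher in single-mouse ovary or hypothalamus than in single-mouse pituitary, against 11.2% for the high pair, 5.95% for the low pair and 16.8% of all genes. Only 24 genes were over 1 higher in both single-mouse pairs, which is 5.15% of the high list and 13.0% of the low list.

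Among the genes of smallest p that were higher in each class, Trim43c came first. This member of a tripartite-motif family known from the early embryo read 4.44, 5.15 and 5.51 on the control high, low and pool arrays and 6.59, 6.37 and 5.82 on the stressed ones. All 3 stressed arrays lay above the controls, with the pools closest together. The difference was 1.23 (95% confidence interval 0.47 to 1.98, limma unadjusted p 0.00528, adjusted p 0.9999), made up of 2.15, 1.22 and 0.31 by class.

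The orphan nuclear receptor Nr4a1, which activates Pomc transcription in corticotropes, read 9.11, 9.11 and 9.22 on the controls. On the stressed arrays it read 10.41, 9.48 and 9.76, so the groups did not overlap and the stressed high mouse was highest. The difference was 0.73 (0.11 to 1.36, unadjusted p 0.0258), with class values of 1.30, 0.37 and 0.53. Actn2, a muscle-type actinin that crosslinks actin, was 0.87 higher (0.23 to 1.5), with 1.25, 0.91 and 0.45 by class. Gip, an incretin hormone of the gut, was 0.84 higher (0.16 to 1.53; 1.18, 0.42 and 0.94). Both had groups without overlap.

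Other higher genes depended on the pools for their size. Neat1, the noncoding RNA that builds nuclear paraspeckles, read 5.95, 5.87 and 6.03 on the controls and 6.50, 6.74 and 8.17 on the stressed arrays. Its difference was 0.54 and 0.87 in the single mice and 2.14 in the pools, and 0.71 without the pool arrays. The matricellular protein gene Ccn5 was 0.49 and 0.51 higher in the single mice and 1.30 in the pools. Ccn5 averaged 9.91 in ovary against 6.16 to 7.34 on the pituitary arrays, so ovarian RNA in the stressed pool moves in the same direction, and its part in this value was not tested. Zfp992 (0.98), Zfp330 (0.68), Naf1 (0.55) and Slc22a13 (0.51) completed the set, and Zfp330 read 0.09 when the several probe sets that name it were averaged.

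Among the lower genes, the mitotic checkpoint gene Mad2l1 had the smallest p. It read 7.62, 7.20 and 7.47 on the controls and 6.21, 6.20 and 7.0 on the stressed arrays. Every stressed array lay below every control, with the stressed pool nearest. The difference was -0.96 (-1.59 to -0.32, limma unadjusted p 0.00826, adjusted p 0.9999), and by class -1.41, -0.99 and -0.47.

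The next genes by p were Endog, Trpt1 and Nqo2. Endog, a mitochondrial nuclease, read 6.63, 6.51 and 6.39 on the controls and 5.71, 5.86 and 5.96 on the stressed arrays, a difference of -0.67 (-1.14 to -0.20). The quinone reductase Nqo2 read 7.34, 6.99 and 6.33 against 6.15, 6.10 and 5.83, a difference of -0.87 (-1.53 to -0.20). Trpt1, which removes the splice-junction phosphate from tRNA, differed by -0.70 (-1.22 to -0.19). None of the 3 genes overlapped between the groups.

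The other lower genes were of several kinds. Gpr6, a receptor that raises cAMP without an added ligand, read 8.28, 7.85 and 7.44 on the controls and 6.99, 7.16 and 7.21 on the stressed arrays (difference -0.74). The neurotrophic factor Nrtn differed by -0.77, with -1.33, -0.76 and -0.22 by class. Ecrg4, which encodes a secreted peptide precursor, differed by -0.84. The chaperone gene Clgn differed by a like amount in each class, with -0.48, -0.56 and -0.66. Zfp764 (-0.74) and Ccdc115 (-0.72) had their largest class difference between the high mice.

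**Figure D2:**
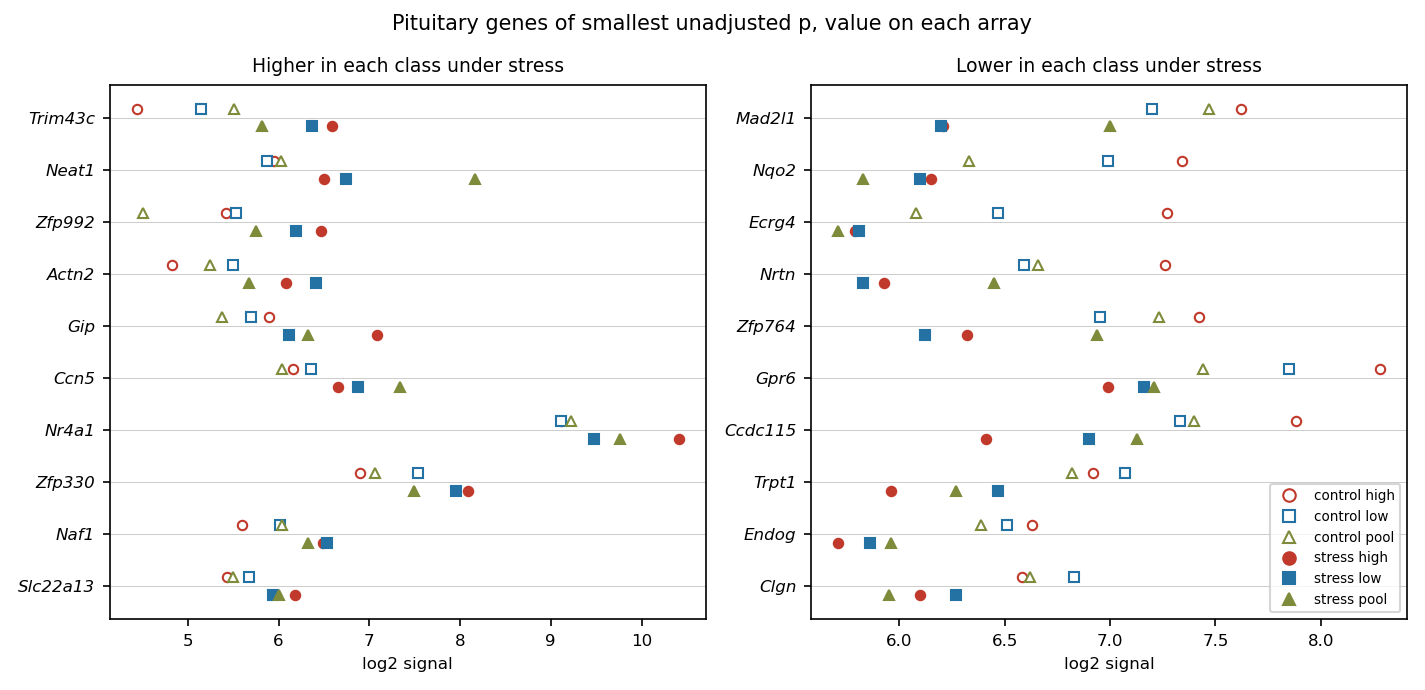
Log2 signal (horizontal axis) on each of the 6 pituitary arrays for the 10 higher and 10 lower genes of smallest unadjusted p whose class differences share a sign. Open markers are controls, filled markers are stressed, and shape and colour give the class; the filled markers of Trim43c and Mad2l1 do not reach the open ones, and Neat1 on the stressed pool (8.17) lies far from its other 5 values.

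The hormone genes lay close together between the groups. Of 7, 2 were higher and 5 lower, with a median of -0.02. Pomc read 12.97, 12.91 and 12.81 on the controls and 12.64, 12.73 and 12.80 on the stressed arrays. All 3 stressed arrays lay below the controls, but by only 0.18 on average (-0.63 to 0.28), with -0.33, -0.18 and -0.02 by class. In RNA from a whole gland, fewer corticotropes and less RNA per corticotrope cannot be told apart, and the same holds for every cell type here.

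Fshb, the subunit that sets FSH apart, was lower between the high mice (-0.45) and higher between the pools (0.44), so its mean difference of -0.02 (-0.70 to 0.65) spans opposite signs. Tshb varied most among the hormones, from 9.73 on the control pool to 11.42 on the control high mouse, and its difference was 0.01 (-1.02 to 1.04). Prl differed by 0.04, Cga by -0.03, Lhb by -0.09 and Gh by -0.01. Gh and Prl reach 13.66 and 13.60 where the highest value of the whole table is 13.66.

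Of 16 lineage transcription factors, 11 were lower, with a median of -0.14 (-0.20, -0.13 and -0.24 by class). The homeobox gene Six6, needed for growth of the pituitary and the eye, read 9.58, 9.94 and 8.49 on the controls and 8.74, 9.23 and 8.04 on the stressed arrays. The ranges overlap because both pools read low, while each class was lower under stress (-0.84, -0.72 and -0.45; mean -0.67, -1.65 to 0.31). Pitx1, a factor of all endocrine lineages, differed by -0.39, of which the pools gave -0.75. Pax7, which marks the intermediate lobe, also differed by -0.39. The list's median was -0.06 without the control pool and -0.02 without the stressed high mouse.

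Receptors for hypothalamic and peripheral hormones split into 11 higher and 10 lower genes with a median of 0.03. The ghrelin receptor Ghsr, which drives growth hormone release, read 5.51, 5.47 and 5.42 on the controls and 6.01, 5.90 and 5.80 on the stressed arrays. The groups did not overlap and the class values of 0.50, 0.42 and 0.38 were alike. The mean was 0.43 (-0.02 to 0.89, unadjusted p 0.059). The GnRH receptor Gnrhr differed by 0.11 (-0.70 to 0.92), the dopamine receptor Drd2 by -0.21, and the growth hormone-releasing hormone receptor Ghrhr by -0.10. The CRH receptor Crhr1 read 6.10, 6.24 and 6.72 on the controls and 6.23, 5.77 and 7.05 on the stressed arrays, with no common direction. The glucocorticoid receptor Nr3c1 differed by -0.12 and the pituitary vasopressin receptor Avpr1b by -0.04.

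In the corticotrope stress axis, 14 of 19 genes were lower and 5 higher, with a median of -0.08, and 8 were higher without the pools. Crhbp, which binds and buffers CRH, differed by -0.32 (-0.11, -0.29 and -0.57 by class). The neuropeptide Y receptor Npy1r read 5.38, 5.41 and 5.30 on the controls and 5.02, 4.96 and 5.27 on the stressed arrays, without overlap (difference -0.28). Glucocorticoid target genes gave no common direction, with 12 of 26 higher and a median of -0.04. Tsc22d3, which encodes the glucocorticoid-induced leucine zipper, differed by -0.07. Fkbp5, a co-chaperone of the glucocorticoid receptor, was lower in the single mice (-0.16 and -0.30) and 1.04 higher in the pools. Pdk4, a brake on glucose oxidation, was 0.46 higher, nearly all of it between the high mice (1.17).

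Immediate early genes leaned higher, with 21 of 33 above 0 and a median of 0.09 (0.20, -0.02 and 0.02 by class). Nr4a1 above and Npas4 had a limma unadjusted p under 0.05 (all genes higher at that level 0.618%). These 2 and Egr1 were higher without overlap (all genes 2.4%). The neuronal activity factor Npas4 read 4.68, 3.90 and 4.91 on the controls and 5.05, 5.10 and 6.10 on the stressed arrays. Every stressed value lay above the controls, the stressed pool most, and the mean difference was 0.92 (0.07 to 1.77) with 0.37, 1.20 and 1.19 by class. Npas4 lay near the level of odorant receptor genes, taken here as not expressed. It was below that level in the control high and low mice (4.84 and 4.71). In the stressed high mouse it was at that level (5.05), and on the remaining arrays above it. The stressed pool was also highest for neural markers, and the part of neural RNA in its Npas4 value was not tested.

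Egr1, which carries the GnRH signal to the LH beta gene, read 7.0, 5.57 and 7.15 on the controls and 7.43, 7.36 and 7.39 on the stressed arrays. The groups did not overlap, but the difference of 0.82 (-0.08 to 1.73) leans on the control low mouse, which read over 1 below the other 5 arrays. The same mouse had the lowest Fos (5.53) and Junb (6.99) values, and Fos differed by -0.85, 1.98 and -0.20 by class. Jund was lower in each class (-0.34, -0.24 and -0.38).

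Further genes of the gonadotrope response to GnRH and activin were 11 higher and 6 lower, with a median of 0.16 that became -0.02 without the stressed pool. Nr0b1, a nuclear receptor that represses gonadotropin genes, read 7.50, 7.19 and 7.15 on the controls and 6.43, 6.86 and 7.06 on the stressed arrays. All stressed values were lower, by 1.07 in the high mice but by 0.09 in the pools. The inhibin subunit Inha was 0.33 and 0.11 higher in the single mice and 1.54 higher in the pools. It is abundant in ovary, and the part of ovarian RNA in the pool value was not tested.

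**Figure D3:**
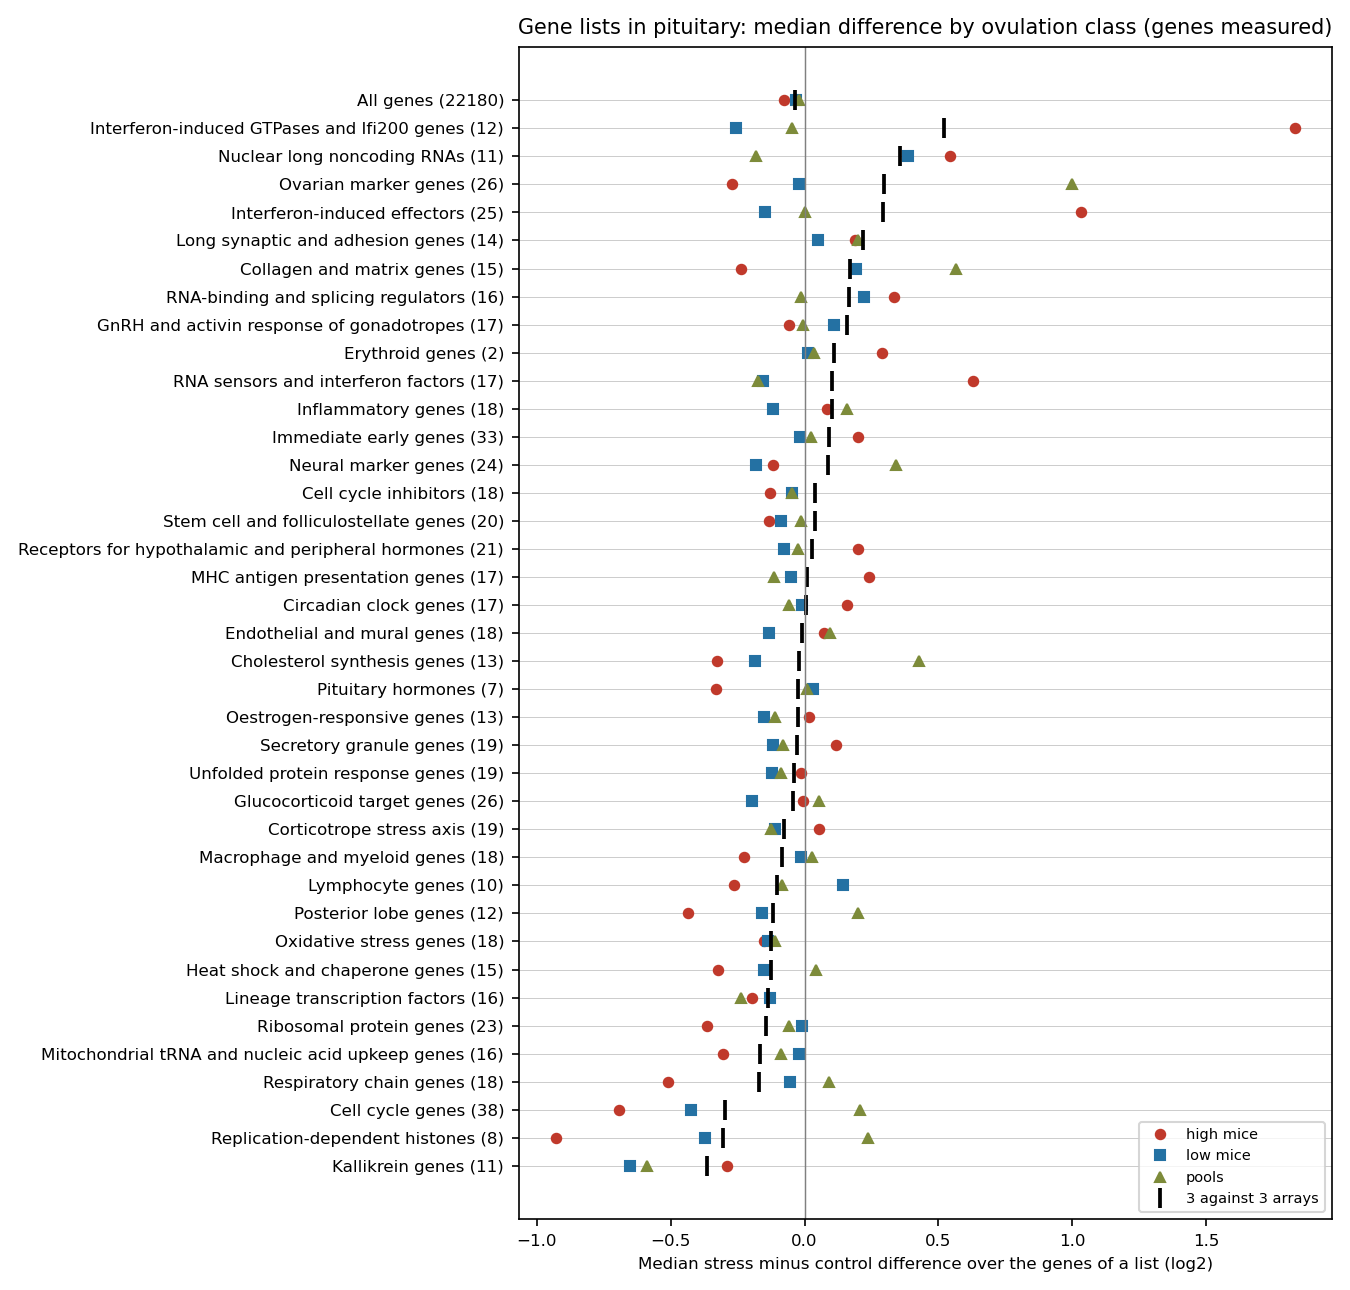
Median stress minus control difference in pituitary (log2, horizontal axis) over the measured genes of each of 38 lists and of all genes (vertical axis, genes measured in brackets). Coloured markers are the high, low and pool differences and the black tick is that of 3 against 3 arrays; interferon-induced GTPases reach 1.83 for the high pair and -0.26 for the low pair, and cell cycle genes reach -0.69 and -0.42 in the single mice but 0.21 in the pools.

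Cell cycle genes were mostly lower in the single mice. Of 38 genes 34 were lower on average, with a median of -0.30. The class medians were -0.69 (high), -0.42 (low) and 0.21 (pool), and 31 genes were lower in both single-mouse pairs, as were 7483 of all 22180 genes. Only 1 member, Mad2l1, had an unadjusted p under 0.05 and no overlap. The median was -0.58 without the pools (33 genes lower) and -0.15 without the stressed high mouse (33 lower).

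The 6 genes with the largest lower differences shared by both single-mouse pairs were taken from genes with a mean at or above the median level (5.61). Of these, Cks2 and Ect2 act in cell division and the others were Hspa1b, Fabp4, Cyp11a1 and Scgb1c1. Cyp11a1 and Scgb1c1 reached that level only through the stressed pool. Cyp11a1 read 11.34 there, against 3.51 to 5.31 on the other pituitary arrays. Scgb1c1 read 9.54 on the stressed pool and 4.47 to 6.08 on the others. Cks2, a small partner of the cyclin-dependent kinases, read 7.02 and 7.11 in the control high and low mice and 4.81 and 5.80 in the stressed ones, and 6.80 against 7.20 in the pools. Single mice and pools thus pointed in opposite directions. Ect2, a regulator of cytokinesis, read 7.13 and 7.50 against 5.41 and 5.93 in the single mice and 5.16 against 5.59 in the pools. Ube2c, which supplies ubiquitin to the anaphase-promoting complex, read 6.75, 6.52 and 6.31 on the controls and 4.94, 6.22 and 6.40 on the stressed arrays. Its stressed high mouse was the lowest array and the other stressed values lay close to the controls. Cyclin B2 (Ccnb2) read 6.91, 7.68 and 6.91 against 6.21, 6.96 and 6.91, and the mitotic kinase Cdk1 7.15, 6.49 and 7.06 against 5.31, 6.35 and 7.43.

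Histone genes transcribed in step with DNA replication had the same pattern, with 8 of 8 lower and medians of -0.93, -0.37 and 0.24 by class. Only 4 of the 8 lay above the odorant receptor level on at least 3 pituitary arrays. Inhibitors of the cycle did not mirror the pattern, with 10 of 18 higher and a median of 0.04. Fabp4, a fatty acid binding protein of fat and endothelial cells, had 6.36, 7.13 and 5.92 on the controls and 4.79, 6.04 and 5.59 on the stressed arrays. Hspa1b, an inducible heat shock protein, was lower in the single mice (-1.15 and -1.14) and higher in the pools (0.59). Both pools read above all single mice for it. Cell cycle genes had higher means in ovary (6.76 to 7.45 by array) than in pituitary (5.48 to 6.24), and the part of ovarian RNA in the pool differences was not tested.

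Promoters of cell cycle genes are known to carry CCAAT boxes and, in those of mitosis, a cell cycle homology region. Windows from 250 bases before to 50 after the start (RefSeq, GRCm38.p6) were searched on both strands for CCAAT and for TTTGAA. These genes and motifs were chosen after the values had been seen. CCAAT occurred in 23 of 31 cell cycle genes with a window (74.2%) and in 41.1% of all genes. TTTGAA occurred in 14 of 31 (45.2%) against 20.2%, and both together in the same 14 (45.2%) against 8.0%. The windows of Ube2c and Ccnb2 are shown since both genes hold several matches and were lower in both single-mouse pairs. They are printed in the direction of transcription, with every match to either motif on either strand in capitals. A match describes the letters and is no evidence of binding.
Ube2c, chr2:164769679-164769978, plus strand: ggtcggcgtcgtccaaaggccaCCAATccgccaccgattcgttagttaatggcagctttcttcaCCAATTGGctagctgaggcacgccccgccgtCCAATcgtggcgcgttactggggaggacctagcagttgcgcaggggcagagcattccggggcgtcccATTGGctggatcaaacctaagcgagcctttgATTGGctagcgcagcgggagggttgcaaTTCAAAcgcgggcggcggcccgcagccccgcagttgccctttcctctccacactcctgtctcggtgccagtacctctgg
Ccnb2, chr9:70421505-70421804, minus strand: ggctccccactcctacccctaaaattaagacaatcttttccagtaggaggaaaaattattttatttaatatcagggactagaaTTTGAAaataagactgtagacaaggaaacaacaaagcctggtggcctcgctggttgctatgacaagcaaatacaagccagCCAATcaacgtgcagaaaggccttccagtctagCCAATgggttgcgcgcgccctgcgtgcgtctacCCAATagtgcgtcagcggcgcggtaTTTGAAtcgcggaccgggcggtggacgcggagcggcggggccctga
The window of Ube2c holds 7 matches and that of Ccnb2 holds 5. Mad2l1, the member of smallest p, had 0 matches to either motif in its window.

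Interferon-induced genes were higher in a single animal, the stressed high mouse. Of 25 effectors, which block virus replication in many ways, 21 were higher on average with a median of 0.29, but the class medians were 1.03, -0.15 and 0.00. All 12 of the interferon-induced GTPases and Ifi200 genes were higher on average with a median of 0.52, and none of the 12 was higher between the low mice (1.83, -0.26 and -0.05 by class). None of these genes reached an unadjusted p under 0.05 or lacked overlap. Without the stressed high mouse, 9 of 25 effectors (median -0.16) and 3 of 12 GTPases (median -0.20) were higher.

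Single genes show the size of this. Oas1g, a sensor of double-stranded RNA, read 2.69, 2.89 and 2.18 on the controls and 7.33, 1.63 and 3.20 on the stressed arrays. Only the stressed high mouse stood above the level of odorant receptor genes, which are taken here as not expressed (at most 5.05 at their 95th percentile). The immunity-related GTPase Iigp1 read 6.54, 7.01 and 5.68 against 9.20, 6.80 and 5.50. Igtp, of the same family, read 7.50, 7.55 and 7.16 against 9.33, 7.24 and 7.03. Irf7, the factor that amplifies interferon transcription, read 6.96, 6.58 and 6.92 against 8.67, 6.48 and 6.60, and Mx2 4.55, 4.98 and 4.60 against 6.83, 5.28 and 4.49. In each, the stressed low mouse and pool lay within or close to the range of the controls. Oas1, Gbp and Irg genes have near-identical copies whose probes may share signal, so single members are uncertain.

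Other tissues of the same mouse showed it too. The stressed high mouse had the highest of 6 pituitary values for 41 of the 54 genes of 3 interferon lists (75.9%; all genes 12.7%) and the highest of 6 ovary values for 45 (83.3%; all genes 14.5%). In hypothalamus it was highest for 20 of 54 (37.0%; all genes 19.9%). Between the high mice, effectors differed by a median of 1.60 in ovary and 0.54 in hypothalamus. Iigp1 in ovary read 5.92, 6.58 and 6.28 on the controls and 9.75, 6.87 and 6.48 on the stressed arrays. In hypothalamus Igtp differed by 1.45 between the high mice and Iigp1 by -0.56.

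Interferon genes themselves differed from member to member. Of 19 measured, 7 lay above the odorant receptor level on at least 3 pituitary arrays, and the median difference between the high mice was 0.07 over all 19. Among those 7 the difference between the high mice ran from 0 for Ifna15 to 1.61 for Ifna14, and for Ifna14 it was -0.19 for the low pair and -0.04 for the pools. Ifna1 was higher in both single-mouse pairs (1.31 and 0.85) and not in the pools (-0.01), in a family of near-identical copies. The receptor chain Ifnar1 read 8.51, 8.75 and 8.60 on the controls and 8.35, 8.47 and 8.43 on the stressed arrays, without overlap (difference -0.21). RNA sensors and interferon factors were 9 of 17 higher, at 0.63 between the high mice, and 6 of 17 without that mouse. Genes of antigen presentation by MHC were 9 of 17 higher (median 0.01; 0.24, -0.05 and -0.11 by class), and 12 of 17 between the high mice.

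White cell markers are given beside the interferon genes. Above the odorant receptor level on at least 3 pituitary arrays lay 4 of 10 lymphocyte genes and 15 of 18 macrophage and myeloid genes. Of 10 lymphocyte genes 4 were higher (median -0.10; -0.27 between the high mice), and of 18 macrophage and myeloid genes 6 were higher (median -0.08; -0.23 between the high mice). Without the stressed high mouse 5 of 10 and 10 of 18 were higher, with medians of -0.04 and 0.01. Cd14, a co-receptor for endotoxin on macrophages, read 5.59, 5.29 and 5.24 on the controls and 4.67, 4.85 and 4.82 on the stressed arrays. The groups did not overlap (difference -0.59, limma unadjusted p 0.0216, by class -0.92, -0.44 and -0.42). On the stressed arrays Cd14 lay below or close to the odorant receptor level (5.05, 4.84 and 4.70). Cd4 differed by -0.52, also without overlap. Inflammatory genes were 12 of 18 higher with a median of 0.10.

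**Figure D4:**
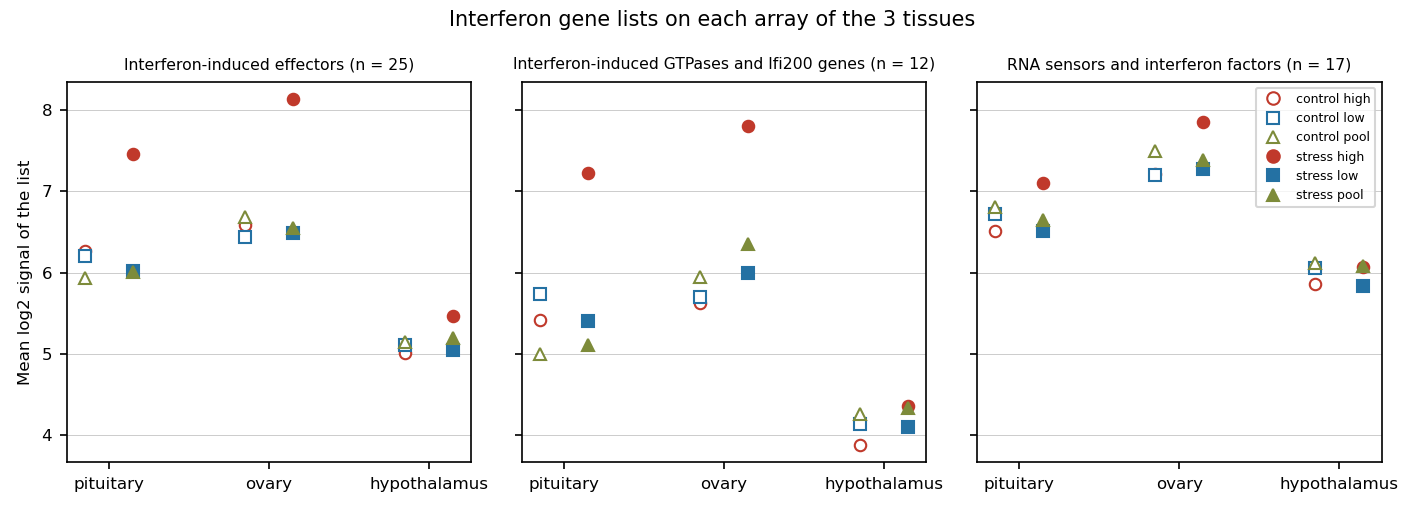
Mean log2 signal (vertical axis) of 3 interferon gene lists on all 18 arrays, by tissue (horizontal axis), treatment (open control, filled stress) and class (shape and colour). The stressed high mouse is the highest array for effectors and GTPases in pituitary (7.46 and 7.23) and in ovary (8.14 and 7.81), while the other 5 pituitary arrays lie at 5.93 to 6.27 and 5.0 to 5.73.

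Interferon acts through a response element of GAAA, any 2 bases and GAAA again (GAAA-N2-GAAA), bound by STAT and IRF complexes, and through the gamma-activated sequence TTCNNNGAA. In the same 300-base windows, searched on both strands and again chosen after the values had been seen, GAAA-N2-GAAA occurred in 10 of 18 effectors with a window (55.6%) and in all 7 GTPase and Ifi200 genes with a window, against 4.0% of all genes. It occurred in 3 of 14 RNA sensors and factors (21.4%). TTCNNNGAA occurred in 5 of 18 (27.8%), 4 of 7 (57.1%) and 9.6% of all genes. The windows of Igtp, Irgm2 and Oas1g are shown, with matches to either motif in capitals.
Igtp, chr11:58199306-58199605, plus strand: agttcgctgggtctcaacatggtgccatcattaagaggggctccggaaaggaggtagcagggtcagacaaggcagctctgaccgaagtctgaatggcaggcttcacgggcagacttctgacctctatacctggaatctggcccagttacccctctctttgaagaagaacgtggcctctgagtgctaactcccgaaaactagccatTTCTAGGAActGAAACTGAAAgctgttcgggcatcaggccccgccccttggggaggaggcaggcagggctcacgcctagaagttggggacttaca
Irgm2, chr11:58214727-58215026, plus strand: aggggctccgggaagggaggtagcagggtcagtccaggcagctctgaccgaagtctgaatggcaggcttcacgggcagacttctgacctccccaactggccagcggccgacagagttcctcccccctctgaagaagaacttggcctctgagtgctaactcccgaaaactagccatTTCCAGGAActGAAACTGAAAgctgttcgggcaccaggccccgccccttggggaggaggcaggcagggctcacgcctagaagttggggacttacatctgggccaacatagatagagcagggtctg
Oas1g, chr5:120887564-120887863, minus strand: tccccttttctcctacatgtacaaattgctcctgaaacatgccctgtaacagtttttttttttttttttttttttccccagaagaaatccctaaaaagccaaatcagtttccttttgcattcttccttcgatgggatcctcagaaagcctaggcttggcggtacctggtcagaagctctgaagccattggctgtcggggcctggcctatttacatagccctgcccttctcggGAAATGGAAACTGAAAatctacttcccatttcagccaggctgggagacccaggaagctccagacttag
Igtp and Irgm2 lie close together on chromosome 11, and each has a TTCNNNGAA match directly before a GAAA-N2-GAAA match. The Oas1g window holds 2 overlapping GAAA-N2-GAAA matches. Irgm2 read 6.15, 6.86 and 7.70 on the controls and 8.47, 6.76 and 7.56 on the stressed arrays, so both pools lay above the other single mice and below the stressed high mouse.

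MicroRNA genes between Meg3 and Dio3 on chromosome 12 differed in opposite directions in single mice and pools. This imprinted cluster is transcribed from the maternal chromosome as part of long noncoding RNAs that include Meg3 and Rian. The genes were picked after their values had been seen. RefSeq lists 59 microRNA genes there, of which 43 were measured and 34 lay above the odorant receptor level. Arrays of total RNA read precursors and host transcripts, so these values are not levels of mature microRNAs.

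The stressed high mouse exceeded its control for 42 of 43 genes (97.7%, median difference 1.21) and the stressed low mouse for 39 (90.7%, median 0.56). The stressed pool exceeded the control pool for 2 (4.7%, median -1.0). Higher in both single-mouse pairs and lower in the pools were 37 of 43 (86.0%), against 96 of 440 other microRNA genes (21.8%) and 13.0% of all genes. Other microRNA genes above the odorant receptor level numbered 125. Of these, 73.6% were higher for the high pair, 68.8% for the low pair and 56.8% for the pools, and 24.0% had the combined pattern. Over 3 against 3 arrays 35 of 43 were higher with a median of 0.26, which became 42 without the pools and 20 without the stressed high mouse. The mean level was 5.47, 5.65 and 6.41 on the control high, low and pool arrays and 6.59, 6.20 and 5.44 on the stressed ones. The control pool was thus the highest control and the stressed pool the lowest stressed array.

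Members of the cluster carry the mature sequences that follow, printed from RefSeq (GRCm38.p6) with the seed, bases 2 to 8, in capitals. First come arms of 4 genes whose values are given next, then 2 pairs that share a seed.
miR-493-3p: uGAAGGUCcuacugugugccagg
miR-329-3p: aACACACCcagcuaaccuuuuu
miR-543-3p: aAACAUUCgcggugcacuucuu
miR-495-3p: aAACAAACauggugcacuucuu
miR-379-5p: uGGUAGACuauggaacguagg
miR-1193-5p: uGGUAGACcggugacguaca
miR-3070-3p: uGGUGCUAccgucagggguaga
miR-3070-2-3p: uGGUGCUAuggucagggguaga
Of 80 mature sequences of the 43 measured genes there were 73 seeds, 7 of them shared by 2 sequences. The pairs miR-379-5p and miR-1193-5p, and miR-3070-3p and miR-3070-2-3p, share theirs.

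Mir493 read 7.73, 7.81 and 7.85 on the controls and 9.42, 8.82 and 6.80 on the stressed arrays. Both stressed single mice lay above every control and the stressed pool below every control. Mir329 read 6.97, 7.26 and 7.79 against 8.81, 8.01 and 6.76, and Mir543 6.96, 7.16 and 7.43 against 8.43, 7.84 and 6.06, in the same order. Mir1193 read 6.07, 6.23 and 7.01 against 7.69, 7.19 and 5.96. These genes thus share the order stressed high, stressed low, controls and stressed pool. Mir495 did too, from lower levels, with 4.33, 5.68 and 4.25 against 6.38, 5.94 and 3.21. In Mir3070b the control pool (6.67) lay above the stressed pool (6.16) and the control single mice (5.32 and 5.95) below both. The pattern did not hold for 6 of the 43 genes. Mir299a was lower for the high pair (-0.22), and Mir381 (-0.92), Mir376c (-0.66), Mir673 (-0.07) and Mir665 (-0.01) were lower between the low mice. Mir673 (0.28) and Mir494 (0.39) were higher between the pools.

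The host transcripts followed in part. Rian read 10.96, 10.69 and 10.80 on the controls and 11.61, 11.58 and 10.68 on the stressed arrays, and Meg3 5.28, 5.84 and 5.94 against 6.14, 6.38 and 5.60. Both were higher in the single mice and lower in the pools. Dlk1, which lies next to the cluster and is expressed from the paternal chromosome, read 9.55, 10.02 and 11.36 against 10.07, 10.03 and 10.87, a difference of 0.52, nearly 0 and -0.49 by class. In other tissues of these mice the microRNA genes were higher in 27, 17 and 17 of 43 by class in hypothalamus and in 20, 22 and 19 of 43 in ovary. Their mean level was 4.59 to 5.14 in hypothalamus and 3.62 to 3.83 in ovary, below every pituitary array.

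**Figure D5:**
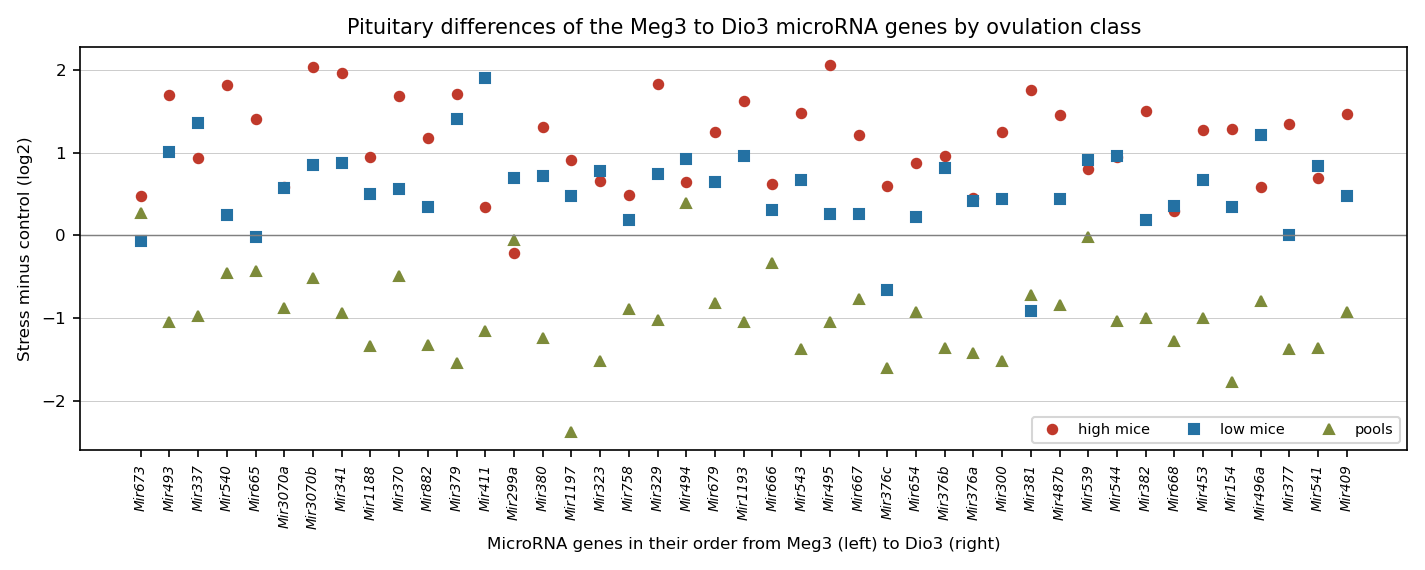
Stress minus control difference in pituitary (log2, vertical axis) for 43 microRNA genes in their order from Meg3 to Dio3 (horizontal axis), by class (marker shape and colour). The high-mouse values lie above 0 for 42 genes, the low-mouse values for 39 and the pool values for 2.

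Nuclear long noncoding RNAs were 7 of 11 higher with a median of 0.36 (0.54, 0.39 and -0.18 by class). Malat1, a noncoding RNA of nuclear speckles, read 11.59, 11.53 and 11.28 on the controls and 12.21, 11.94 and 11.66 on the stressed arrays. The groups did not overlap, and the difference of 0.47 (-0.06 to 1.01) had the same sign in each class. Splicing and other RNA-binding regulators were 13 of 16 higher with a median of 0.17 (0.33, 0.22 and -0.01). Of the 16, 11 were higher in both single-mouse pairs, as were 5117 of all 22180 genes. Their median was 0.37 without the stressed pool. Son, a speckle protein needed to splice weak introns, read 7.66, 7.59 and 7.52 on the controls and 8.13, 8.26 and 7.89 on the stressed arrays (difference 0.50, 0.03 to 0.98, unadjusted p 0.0412). Sfpq, a paraspeckle protein, was 0.43 higher, also without overlap.

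Genes of energy supply and translation leaned the other way. Of 18 respiratory chain genes 17 were lower with a median of -0.17, although the class medians were -0.51, -0.06 and 0.09 and 12 were lower without the stressed high mouse. Sdhb, the iron-sulphur subunit of succinate dehydrogenase, read 8.85, 8.36 and 8.37 on the controls and 7.90, 8.02 and 8.24 on the stressed arrays, without overlap. Ribosomal protein genes were 20 of 23 lower (median -0.14; -0.36, -0.01 and -0.06 by class), and 16 without the stressed high mouse. Genes of mitochondrial tRNA and nucleic acid upkeep were 11 of 16 lower (median -0.17), among them Endog above and the ribosomal subunit gene Mrps12 (-0.50). Gene length moved with the difference among 10529 genes. These encode proteins, have a known genomic span and have a mean level no lower than 5.61, the median of all genes. The shortest of 5 equal groups (median 4.68 kb) had a median difference of -0.17 and the longest (median 137.65 kb) 0.07. The same medians were -0.28 and 0.16 for the high pair, -0.14 and 0.04 for the low pair, and -0.10 and -0.05 for the pools. The median span was 3.95 kb for the ribosomal protein genes, 11.05 kb for the respiratory chain and 14.94 kb for the splicing regulators, and the part of length in these differences was not tested.

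Stress-protein genes were not higher. Oxidative stress genes were 13 of 18 lower with a median of -0.12, 8 of them in every class (all genes 17.7%). Once the stressed high mouse was left out, 10 were higher. Of the 18, 3 were lower without overlap (all genes 3.68%): Nqo2 above, the peroxiredoxin Prdx2 (-0.25) and the secreted glutathione peroxidase Gpx3 (-0.11). The glutathione peroxidase Gpx1 differed by -0.40 (-0.57, -0.32 and -0.30 by class). Heat shock and chaperone genes were 11 of 15 lower, and 8 without the stressed high mouse. The co-chaperone Dnajb1 read 8.25, 7.70 and 7.37 on the controls and 7.10, 6.88 and 7.41 on the stressed arrays, so the pools overlapped. Genes of the unfolded protein response were 8 of 19 higher with a median of -0.04.

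Collagen and matrix genes were 10 of 15 higher with a median of 0.17, and 5 of 15 without the pools. Col1a1, a chain of fibrillar collagen, read 6.79, 7.06 and 7.44 on the controls and 7.10, 9.80 and 8.51 on the stressed arrays. The stressed low mouse lay far above the rest, and the difference was 1.37 (0.04 to 2.71) with overlap. Fibronectin (Fn1) read 5.80, 6.22 and 6.40 against 5.65, 7.71 and 7.76. Kallikrein genes, proteases with near-identical copies, were 7 of 11 lower with a median of -0.37, which was -0.05 without the pools and -0.72 without the stressed high mouse.

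Posterior lobe genes, which mark how much neural lobe a sample holds, were 5 of 12 higher (median -0.12), and 2 of 12 without the pools. Oxytocin (Oxt) read 7.23, 6.92 and 6.55 on the controls and 6.64, 6.11 and 6.53 on the stressed arrays, with overlap. Cholesterol synthesis genes turned with the class, at -0.33 and -0.19 in the single mice and 0.43 in the pools, and 0 of 13 were higher without the pools but 10 without the stressed high mouse. Secretory granule genes (9 of 19 higher, median -0.03), circadian clock genes (9 of 17, 0.01) and endothelial and mural genes (9 of 18, -0.01) lay near all genes.

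Whether the pituitary difference departed from that of the other tissues was tested on all 18 arrays, with the mouse or pool as a random block. In limma 0 of 22180 genes passed an adjusted p of 0.05 against hypothalamus (0.0%; 773 at an unadjusted p under 0.05, 3.49%) and 0 against ovary (0.0%; 805, 3.63%). Against ovary, Ccn5 had among the smallest p values, with 0.77 in pituitary and -0.47 in ovary (difference 1.24, unadjusted p 0.000172, adjusted p 0.9999). The checkpoint kinase Chek2 read 5.72, 5.78 and 5.85 on the pituitary controls and 4.71, 5.39 and 4.99 on the stressed arrays. It was lower without overlap in pituitary (-0.76) and 0.30 higher in ovary, a difference of -1.05. Parpbp, which restrains recombination, gave -1.15.

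Against hypothalamus, Ifna16 (-1.32), Slc10a6 (0.95), Hnf4g (0.89) and Stfa1 (1.32) came first with Mrgprx2 (1.20). Only Mrgprx2 lay above the odorant receptor level on all 6 pituitary arrays. A single gene passed when the pools were left out (limma adjusted p 0.0268) or when only the control hypothalamus pool was (0.0166). It was Slc6a3, the dopamine transporter. In hypothalamus it read 6.12, 5.86 and 8.31 on the controls and 8.09, 8.68 and 7.50 on the stressed arrays, and in pituitary 5.96, 5.50 and 5.69 against 5.33, 5.34 and 5.36. The pituitary difference was -0.37. The call was absent with all 18 arrays, where the control hypothalamus pool is the only control that reads as high as the stressed arrays.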

How the data were processed

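Total RNA (6 ug, extracted with Trizol, per the labels) was biotin labelled and hybridised to Affymetrix Mouse Gene 2.0 ST arrays. The deposited values are log2 signals, 1 per transcript cluster (probe set) and array, made by the authors with Transcriptome Analysis Console per the submitters' processing notes. Its version, background correction and normalization are not given in the sources used here.

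Of 41345 clusters, 23521 named exactly 1 gene. The cluster of highest mean was kept for each of 22180 genes. The 16010 unannotated clusters were fitted separately (0 called, 716 at an unadjusted p under 0.05). The stress and control arrays were fitted in limma 3.58.1 (R 4.3.3; lmFit and eBayes, 6 arrays, 4 residual degrees of freedom, median standard error 0.27), with Benjamini-Hochberg adjustment and 95% intervals. The number of arrays limits the precision. Tissue differences were interactions on 18 arrays with the mouse or pool as a random block (consensus correlation 0.27). The fits were tested on simulated data with independent noise on each array. Those data held neither a difference between pools and single mice nor a correlation within a mouse, so the test covers neither.

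The level of genes not expressed was the 95th percentile of 1105 odorant receptor genes on each array, to be passed on at least 3 pituitary arrays. Same-class deviations from the group means correlated at 0.366 (high), 0.359 (low) and 0.66 (pool), and different-class single mice at 0.313 and 0.321. Deviations of pools and single mice correlated at -0.503 to -0.443. Pairing comes from class names and not from shared animals. P-values measure the spread between these arrays, which without the block includes that between pools and single mice.

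The comparison, the 38 lists, the tests and the microRNA and promoter sets were chosen with earlier results of these data known. Genes were named by smallest unadjusted p with 1 sign in all classes and a level at or above the median (10 per direction). Others were named by the largest difference shared by both single-mouse pairs, with the same limit on level (6 per direction). Further genes had the smallest p in each tissue difference (5) and within lists (6). Hormones, lineage factors and receptors were all eligible. Predicted genes and small RNAs were counted but not named, other than the microRNA genes of chromosome 12. Some listed genes were not analysed here. Figures were drawn with matplotlib 3.10.9.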

Additional observations from a re-analysis of the deposited data

How the results depend on the processing

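In pituitary 0 genes passed an adjusted p of 0.05 in limma under every alternative run. The 294 genes at an unadjusted p under 0.05 became 1110 with the ovulation class as a replicate block, 100 with a filter on low values, 1578 without pool arrays, 3135 with array weights, 967 over all transcript clusters and 674 in the fit of all 18 arrays with the animal block. Leaving out 1 array gave 176 (without the stressed high mouse) to 956 (without the stressed pool), with 836 without the control pool and 190 without the stressed low mouse. The 1349 genes with no overlap became 700 with the filter, 8825 without pools (2 against 2 arrays), 2867 over all clusters, and 2400 to 5240 with 1 array left out. Fewer arrays make a lack of overlap easier by construction, and the cause of the other shifts was not tested. The block changed no other call. For pituitary minus hypothalamus, 0 became 1 without pools (adjusted p 0.0268) and 1 without the control hypothalamus pool (0.0166). Of 279 named genes, 0 turned sign with the block, 6 with quantile normalization, 19 without pools, 21 with array weights and 11 to 23 with 1 array left out.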

Other observations

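Genes of the olfactory system were among those that set the stressed pituitary pool apart, and they were chosen after their values had been seen. Of the 33 genes over 2 above all other pituitary arrays, 7 were not over 1 higher in single-mouse ovary or hypothalamus than in single-mouse pituitary. They were S100a5, Scgb1c1, Cdhr1, Bpifb3, Slc17a7, Frmd7 and Omp. Omp, the olfactory marker protein of mature olfactory neurons, read 7.40 on the stressed pool, 5.38 on the control pool and 4.72 to 5.23 on the single mice. The calcium-binding protein S100a5, abundant in olfactory neurons, read 8.52, 4.24 and 2.78 to 4.0 in the same order. Scgb1c1, a secretoglobin of the nasal epithelium, read 9.54, 5.61 and 4.47 to 6.08. The cadherin-related gene Cdhr1, known from photoreceptors and mitral cells of the olfactory bulb, read 7.91, 5.52 and 5.10 to 5.51.

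Pmch, the melanin-concentrating hormone gene of the lateral hypothalamus, was the only gene over 2 above all others on the control pool, at 6.67 against 3.60 to 4.30.

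The promoter windows of Nr4a1 and Npas4 held 0 exact matches to the full cAMP response element TGACGTCA, searched on both strands. Shorter forms and forms with a changed base were not searched, so these windows may hold them. The exact element occurred in 3 of 25 immediate early genes with a window (12.0%) and in 2.0% of all genes.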
